A study of Mus musculus with 7 samples.

Results

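The sterol and fatty acid genes Hmgcs1, Sqle, Insig1, Scd1, Fasn, Acot1, Apoe and Apoc1 were followed in 4 cell classes of the mouse seminal vesicle, with the question of how their RNA differed between diets. These 8 were chosen by name from 30406 genes counted in all 23 mice, each as UMIs (unique molecular identifiers, the barcodes by which 1 RNA molecule is counted once). All mice were wild-type males. The diet pool held 8 FVB/NJ mice of 3 months that were tagged and run together, 2 each on a control diet, a high fat diet, a low protein diet and caloric restriction. One more FVB/NJ mouse of 3 months was run as a single-mouse library on each diet except restriction, which gave 11 diet mice. The aging pool held 10 C57BL/6J mice on chow, 2 at 3 months and 2 each at 20 and 28 months with and without transient rapamycin. A young mouse of 3 months and an old mouse of 18 months, both FVB/NJ on the control diet, were also run singly. Mice under caloric restriction were housed alone and received less of the same AIN-93G food on which the other 3 diets were based, so housing and diet cannot be told apart. Only 2 mice were restricted, both in the pool.

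Hmgcs1 encodes the synthase that makes HMG-CoA in the cytosol, an early step of cholesterol synthesis, and Sqle encodes squalene epoxidase, which acts further along that route. Their transcription is driven by SREBP2, which a cell releases when its membranes are poor in sterol, while Insig1 encodes the membrane protein that holds the SREBP carrier back and is itself an SREBP target. Fasn makes palmitate, and Scd1 puts a double bond into long saturated chains. Acot1 hydrolyses acyl-CoA in the cytosol and is a known PPAR alpha target in liver. Apoe and Apoc1 encode small exchangeable apolipoproteins, and Apoe carries lipid out of macrophages and many other cells.

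The promoters are shown because the sterol genes are known for the sequences through which sterol shortage acts on them, while Apoe is not a classical gene of that kind. RefSeq windows (GRCm38.p6) were matched for 5 of the 8 genes, namely Hmgcs1, Insig1, Fasn, Acot1 and Apoe. Each line below gives the part of the RefSeq window that lies 5′ of both the RefSeq start and the GENCODE start, on the strand of the gene and at most 250 bases, with matches to any of 3 motifs in capitals. The motifs, searched on both strands, were a sterol response element (TCACNCCAC), the E-box CACGTG and the CCAAT box (CCAAT, or ATTGG on the other strand). These were found in 1.05%, 6.02% and 33.8% of 32851 windows of the same length.
Hmgcs1, chr13:119690101-119690350, plus strand: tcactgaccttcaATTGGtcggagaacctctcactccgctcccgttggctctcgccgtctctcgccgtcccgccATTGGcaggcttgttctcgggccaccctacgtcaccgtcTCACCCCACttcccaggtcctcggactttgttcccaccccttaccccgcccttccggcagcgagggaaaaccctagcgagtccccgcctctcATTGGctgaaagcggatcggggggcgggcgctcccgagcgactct
Insig1, chr5:28071162-28071362, plus strand: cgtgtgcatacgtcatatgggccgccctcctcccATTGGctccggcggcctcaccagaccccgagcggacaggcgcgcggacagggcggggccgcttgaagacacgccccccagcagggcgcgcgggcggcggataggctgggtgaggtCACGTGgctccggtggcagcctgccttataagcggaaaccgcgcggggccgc
Apoe, chr7:19699189-19699438, minus strand: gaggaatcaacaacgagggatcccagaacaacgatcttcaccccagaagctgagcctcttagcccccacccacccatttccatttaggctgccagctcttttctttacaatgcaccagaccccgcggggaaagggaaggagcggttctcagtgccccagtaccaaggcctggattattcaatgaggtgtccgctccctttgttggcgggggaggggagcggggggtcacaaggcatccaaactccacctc
The Hmgcs1 line holds the element TCACCCCAC and 3 CCAAT boxes. The Insig1 line holds the E-box and 1 CCAAT box. None of the 3 motifs was found in any of the 3 Apoe windows. Of these, only the window shown lies 5′ of the GENCODE start, and the others lie inside the gene. Fasn had 3 CCAAT boxes and Acot1 had 1. A match is only a run of letters, and a window without one says nothing about the factor.

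In GRCm38 coordinates (GENCODE vM21), Apoe at chr7:19696109-19699188 and Apoc1 at chr7:19689481-19692660 lie 3448 bases apart on the same strand. The other 6 lie on 6 chromosomes: Hmgcs1 at chr13:119690379-119708260, Sqle at chr15:59315077-59331192, Insig1 at chr5:28071363-28078662, Scd1 at chr19:44394455-44407879, Fasn at chr11:120805846-120824547 and Acot1 at chr12:84009490-84018371. Acot1 has close relatives on both sides (Acot2, Acot3 and Acot4), and how the counting divided reads that fit more than 1 of them is not known, so its counts are uncertain.

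Cells were put into classes by genes that are not among the 8. Secretory cells had at least 25% of their UMIs on the Svs genes, which encode the proteins of seminal fluid, and 0 to 23 cells per mouse lay between 20 and 30%. Basal cells had Krt5 or Krt14, fibroblasts Col1a1 or Col1a2, and macrophages C1qa. Of 40306 cells of all 23 mice, 522 met more than 1 definition and 16808 met none, and all of these were left out. Markers that did not make the classes followed them: Dnase2b, Ceacam10 and Spink1 summed to a median of 100204 CPM (UMIs of a gene for each 1000000 UMIs of the class in a mouse, with Svs genes left out of the total) in secretory cells against at most 932 in another class, and Trp63, Krt15 and Cldn4 to 4908 in basal cells against at most 1110. The other medians were 4701 for Dcn, Lum and Pdgfra in fibroblasts, against at most 751 elsewhere, and 6509 for C1qb, C1qc, Csf1r, Adgre1 and Cd68 in macrophages, against at most 14.4 elsewhere. The adipocyte list (Adipoq, Plin1, Cidec, Retn and Lep) stayed at or below 5.38 CPM in every class of these mice. The libraries labelled as a young and an old seminal vesicle held no secretory cell, and epididymal Lcn8, Lcn9 and Gpx5 summed to between 3335 and 19332 CPM in their other classes. They went against their label and enter no comparison, which leaves 21 mice. Between 1 and 20 cell barcodes were shared by 2 libraries.

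Depth differed between the sets. A mouse had 174 to 1113 cells in the diet pool, 243 to 809 in the aging pool and 3672 to 4211 in a diet single-mouse library, where secretory cells were 65.9 to 81.1% of the cells. Restricted mice gave 72 and 14 secretory cells and 92 and 48 basal cells. Control mice gave 112, 14 and 2776 secretory cells and 290, 23 and 427 basal cells. Median UMIs per basal cell were 3694 to 5853 in the diet pool and 1108 to 1271 in the single-mouse libraries. Levels in CPM were computed for a class with at least 10 cells in a mouse.

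The order of classes differed between most of the genes, while Scd1 and Fasn shared the same order. Apoe had a median of 21024 CPM in macrophages, 5447 in basal cells, 855 in fibroblasts and 275 in secretory cells. Apoc1, its neighbour on the chromosome, was found in basal cells at a median of 207, in secretory cells at 17.0, and at a median of 0 in fibroblasts and macrophages. Hmgcs1 was highest in basal cells (59.3) and fibroblasts (51.6), against 15.3 in macrophages and 14.3 in secretory cells. Sqle ran from 21.6 in basal cells through 11.8 in fibroblasts and 9.42 in secretory cells to 0 in macrophages. Insig1 was highest in macrophages (83.0), followed by fibroblasts (27.0), basal cells (20.9) and secretory cells (9.91). Among these classes Scd1 was highest in fibroblasts, with 83.4 there, 16.8 in basal cells, 4.92 in secretory cells and 0 in macrophages. The fibroblast class also held the smooth muscle genes Myh11, Acta2 and Tagln at a summed median of 2189 CPM. Fasn lay at 26.2 in fibroblasts, 19.9 in basal cells, 12.7 in secretory cells and 3.76 in macrophages. Acot1 was at 39.5 in fibroblasts, 27.4 in secretory cells, 18.01 in basal cells and 0 in macrophages. No 2 genes are compared in level here, since 3′ UMI counts are not corrected for length.

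**Figure D1:**
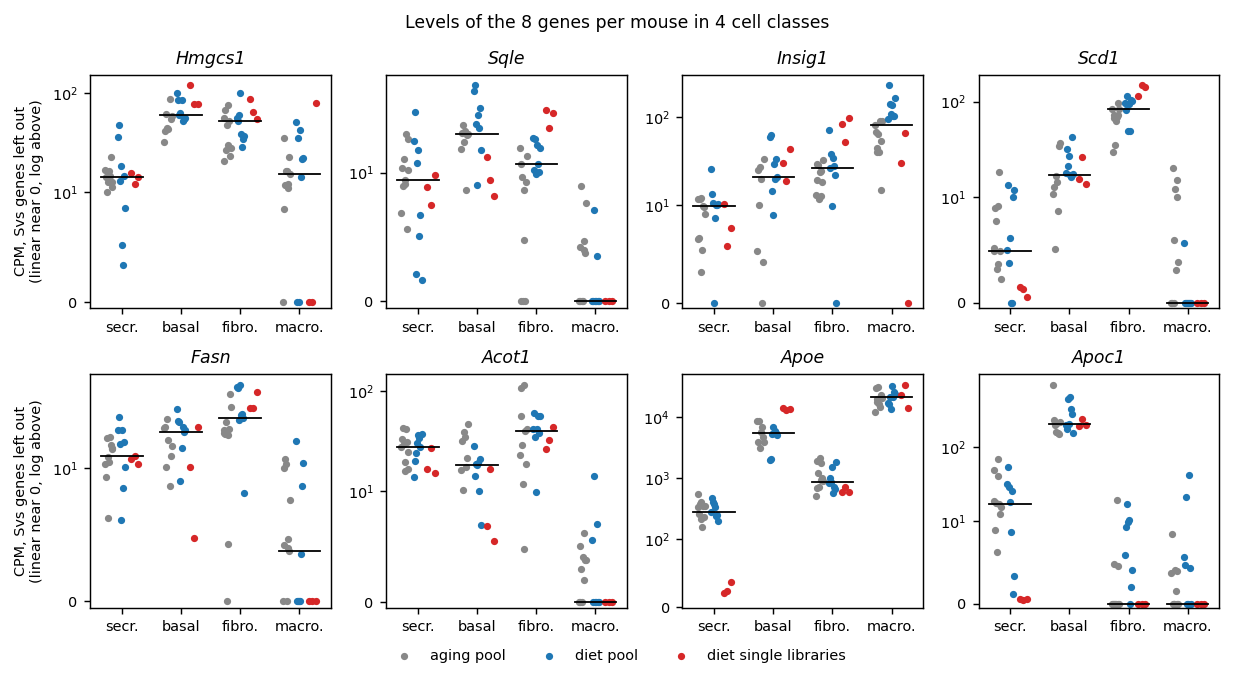
Levels of the 8 genes in 4 cell classes, 1 point per mouse, in CPM with Svs genes left out (axis linear near 0 and logarithmic above), with a bar at the median. Apoe in secretory cells of the 3 single-mouse libraries (21.8 to 36.7) lay below every mouse of both pools.

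The order of classes was tested with edgeR on UMI sums, with the mouse as a block, over 19 mice where basal cells took part and 21 elsewhere. A log2 difference was called at a Benjamini-Hochberg adjusted p under 0.05 over all genes tested. In secretory against basal cells 6 of 8 genes were called, while 76.4% of all genes were, so the count itself is near the background. The log2 difference, secretory minus basal, was -3.81 (SE 0.375) for Apoe, -3.53 (SE 0.393) for Apoc1, -1.46 (SE 0.295) for Scd1, -1.38 (SE 0.147) for Hmgcs1 and -0.51 (SE 0.182) for Insig1. Acot1 was higher there by 1.17 (SE 0.233), although without TMM scaling it stood at 0.43 with an edgeR adjusted p of 0.0759. Without the diet pool Insig1 stood at -0.17 (edgeR adjusted p 0.591) and without the single-mouse libraries at -0.35 (adjusted p 0.124), so its call was kept with 1 of the 3 library sets left out. Apoe and Apoc1 stayed called at -3.15 and -2.76 without the single-mouse libraries, and Apoc1 at -4.59 without the aging pool. Fasn at 0.39 and Sqle at -0.36 were not called. The sign of Fasn was opposite to the order of its medians, 12.7 CPM in secretory and 19.9 in basal cells. Fasn turned to -0.37 without TMM and was called at 0.80 without the diet pool, and Sqle was called at -0.54 without the single-mouse libraries and turned to 0.47 without the diet pool. In secretory cells against fibroblasts 5 of 8 were called (background 78.4%), with Scd1 lower by a log2 difference of -3.56, Apoe by -1.38, Insig1 by -1.06 and Hmgcs1 by -0.92. Scd1 stayed called at -4.51 without the aging pool and -2.97 without the single-mouse libraries. Acot1 at 0.09 and Sqle at 0.23 were not called, with signs opposite to the order of their medians. Without the diet pool Acot1 and Sqle were also called, at 0.46 and 0.74. The fifth called was Apoc1, which did not pass the filter on low counts in the fits within fibroblasts, so that it was tested only through the class where it is high, and no fold is given. In the fits within macrophages only Apoe and Insig1 passed that filter, so the other genes were tested against macrophages only through the other class. Their calls and folds are not given here, and a fold of Hmgcs1 is printed below only to show how it moved with the scaling. Secretory minus macrophage was -5.74 for Apoe and -2.26 for Insig1, both called, where 80.6% of all genes were.

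Basal cells differed from fibroblasts in 7 of 8 genes (background 63.5%). Apoe was higher in basal cells by 2.51 (SE 0.231), Sqle by 0.71 (SE 0.259) and Hmgcs1 by 0.49 (SE 0.137), and Apoc1 was tested only through basal cells. Scd1 was lower by a log2 difference of -2.12 (SE 0.152), Acot1 by -1.04 (SE 0.251) and Fasn by -0.59 (SE 0.190). Insig1 at -0.38 was not called. Without the diet pool the calls of Sqle (0.091, edgeR adjusted p 0.874), Hmgcs1 (0.36, adjusted p 0.159) and Acot1 (-0.81, adjusted p 0.0753) were lost and Insig1 was called at -0.89, and without the aging pool Sqle lost its call (0.72, adjusted p 0.0715). Against macrophages Apoe at -1.70 and Insig1 at -1.76 were called lower in basal cells (background 77.9%). Fibroblasts were lower than macrophages in the same 2 genes, Apoe at -4.29 and Insig1 at -1.51 (background 77.1%). Without the single-mouse libraries the basal differences were -2.46 for Apoe and -2.35 for Insig1, and the fibroblast difference of Insig1 was -2.13, all still called. Genes that did not pass the filter on low counts were Sqle, Scd1 and Fasn in secretory cells against macrophages, Scd1 and Fasn in basal cells against macrophages, and Sqle and Apoc1 in fibroblasts against macrophages. TMM moved these splits: of the genes called between secretory and basal cells, 2747 of 6427 were higher in secretory cells with TMM and 1228 of 6925 without it. The split was 2799 of 6971 and 1480 of 7451 against fibroblasts, and 2770 of 5194 and 1791 of 5217 against macrophages.

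RNA released from broken cells can put UMIs of 1 class into another, and a single source keeps its genes in 1 ratio. Over 19 to 21 mice, Apoe gave 3.64 UMIs for each UMI of C1qb and C1qc in macrophages, 1141 in basal cells, 117 in fibroblasts and 49.8 in secretory cells. In secretory cells Apoe gave 4.53 UMIs for each UMI of Krt5 and Krt14, and in basal cells 2.09. For Apoc1 the same ratio was 0.268 in secretory and 0.0971 in basal cells. Krt5 and Krt14 also set the basal class, and cells that met more than 1 definition were left out. The cut thus fixed part of the difference in these ratios between classes. Ratios to C1qb and C1qc share this limit, since C1qa set the macrophage class. They rest on 48 UMIs of C1qb and C1qc in basal cells, 65 in fibroblasts and 155 in secretory cells. Secretory Apoe was 200 to 470 CPM in the diet pool and 21.8 to 36.7 in the single-mouse libraries, while basal Apoe was higher in those libraries (12812 to 14058) than in the diet pool (1988 to 6752). What part released RNA has in any of these levels was not tested.

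Caloric restriction went with less Apoe and more Insig1 in basal cells, and these were the only 2 of the 8 genes called against the control diet in any class. In this comparison 1.55% of 6438 genes were called, 22 higher and 78 lower. Basal Apoe was 1988 and 2035 CPM in the restricted mice and 5216, 6752 and 14058 in the control mice, from 1341 and 576 UMIs against 9057, 750 and 8259. It was 5447, 5055 and 12812 on the high fat diet and 5404, 5935 and 13313 on the low protein diet. Both restricted mice lay below every other mouse of the diet set, and also below the 8 aging mice, which ran from 3066 to 8730. The log2 fold change was -1.57 (SE 0.116) with an edgeR adjusted p of 1.99e-06, and it was -1.57 (adjusted p 3.56e-05) among the 8 mice of the pool alone. Against the high fat diet it was -1.41 (SE 0.115, edgeR adjusted p 8.40e-06), where 1 of the 8 genes and 2.11% of all genes were called. Against the low protein diet it was -1.47 (SE 0.115, edgeR adjusted p 4.83e-06), again the only one of the 8 called, against 1.60% of all genes. These comparisons share the 2 restricted mice.

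Insig1, the sterol-dependent brake on SREBP, went up in the same cells. Its level was 59.3 and 63.6 CPM under restriction and 14.4, 9.00 and 30.6 on the control diet, with no overlap. The counts were small, 40 and 18 UMIs against 25, 1 and 18. High fat mice had 33.9, 20.9 and 18.9, and low protein mice 29.5, 20.1 and 43.8, all below both restricted mice. The log2 fold change was 1.84 (SE 0.384, edgeR adjusted p 0.0206), and 2.11 (adjusted p 0.0198) in the pool alone. It was 1.34 against the high fat diet and 1.20 against the low protein diet, where it missed the threshold (edgeR adjusted p 0.0628 and 0.124). DESeq2 gave Insig1 no adjusted p. The call was lost without either restricted mouse (edgeR adjusted p 0.122 without mouse 1 and 0.0520 without mouse 2) and without control mouse 1 (1.48, adjusted p 0.352), and also with stricter class markers (1.35, adjusted p 0.230).

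**Figure D2:**
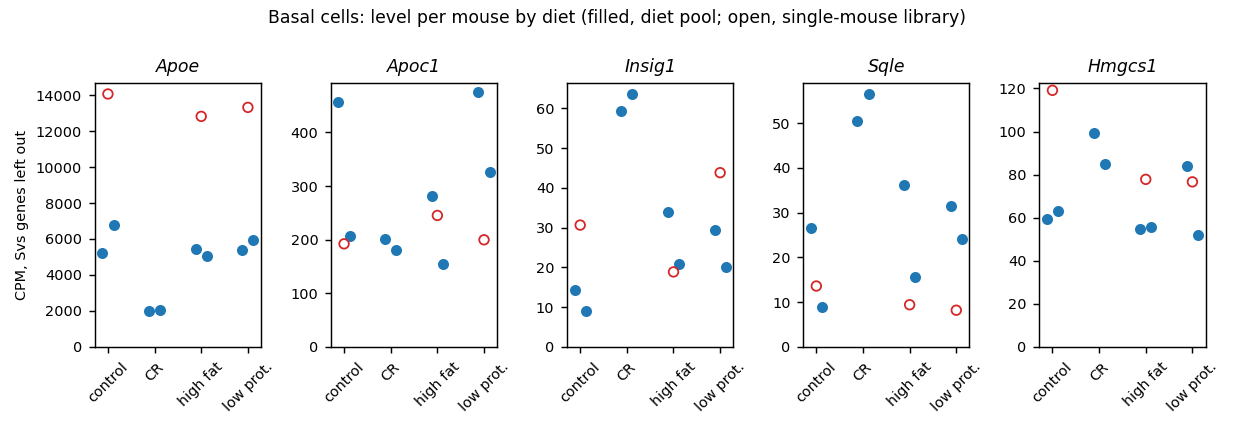
Level in basal cells of each of the 11 diet mice, in CPM, by diet (filled points, diet pool; open points, single-mouse libraries). Both restricted mice lay below all others for Apoe (1988 and 2035) and above all others for Insig1 (59.3 and 63.6).

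The enzymes of the route did not pass the test in basal cells. Sqle was 50.4 and 56.5 CPM under restriction, 26.5, 9.00 and 13.6 on the control diet, 36.3, 15.7 and 9.43 on the high fat diet and 31.6, 24.1 and 8.21 on the low protein diet. Its restricted mice were again the highest of the 11, and how many of all genes were so was not counted. The log2 fold change of Sqle was 0.99 (SE 0.387, edgeR adjusted p 0.255). Hmgcs1 was 99.3 and 84.8 under restriction and 59.3, 63.0 and 119 on the control diet, so that the groups overlapped (0.45, edgeR adjusted p 0.499). Apoc1 was 202 and 180 under restriction and 456, 207 and 192 on the control diet, with overlap (-0.84, edgeR adjusted p 0.287). Fasn (0.41), Acot1 (0.45) and Scd1 (0.07) had edgeR adjusted p values of 0.760, 0.796 and 1.00.

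Smooth muscle, Krt14 and stress RNA moved with restriction in basal cells, while Krt5, haemoglobin and macrophage RNA overlapped between restricted and control mice. The smooth muscle genes Myh11, Acta2 and Tagln, all 3 detected in both restricted mice, summed to 646 and 2361 CPM there, 92.7 to 192 in control mice, 10.4 to 70.2 in high fat mice and 65.7 to 453 in low protein mice. Krt14, used for the class, was 1131 to 1279 in restricted and 2196 to 3910 in control mice, while Krt5 was 640 to 692 and 576 to 904. The 18 dissociation stress genes summed to 17555 and 23261 in restricted mice against 12488 to 17147 in controls. Haemoglobin genes summed to 454 and 5592 against 0 to 1666. Macrophage markers were 3.53 and 20.8 in restricted mice and 11.9 to 18.01 in control mice, and the adipocyte list was at 0 in both groups. When cells with any smooth muscle UMI were left out, Apoe was 2052 and 1915 against 5709, 5845 and 14449, with a log2 fold change of -1.55 (edgeR adjusted p 5.25e-07). Without those cells Insig1 was 59.6 and 101 against 10.9, 11.2 and 29.3, with a log2 fold change of 2.21 and an edgeR adjusted p of 0.0660. The part that stress RNA, haemoglobin RNA and the lower Krt14 have in these differences was not tested.

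**Figure D3:**
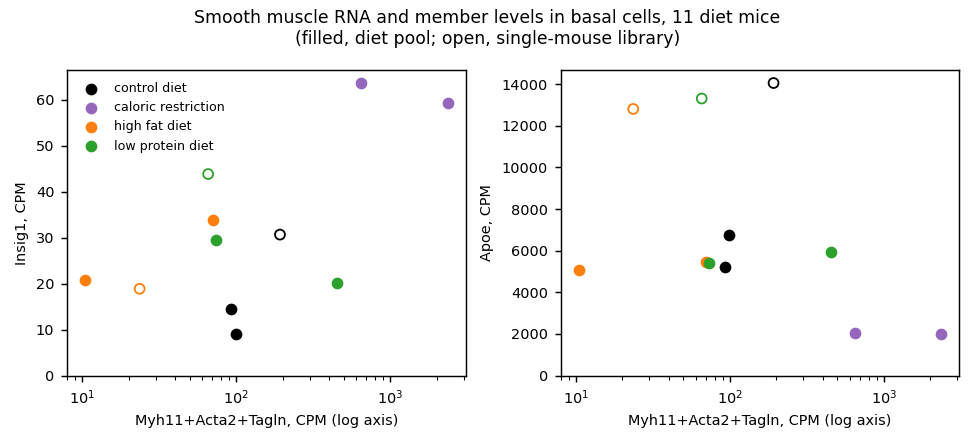
Insig1 (left) and Apoe (right) in basal cells of the 11 diet mice against the sum of Myh11, Acta2 and Tagln in the same cells (logarithmic x axis), all in CPM. The 2 restricted mice had the 2 highest smooth muscle sums (646 and 2361), and a low protein mouse at 453 had 20.1 of Insig1 and 5935 of Apoe.

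The basal fall in Apoe was larger than the difference in fibroblasts. Fibroblast Apoe was 841 and 1022 CPM under restriction and 855, 1524 and 603 on the control diet, with overlap (log2 fold change -0.20, edgeR adjusted p 0.901). In a model over both classes with the mouse as a block, the restriction difference of Apoe in basal cells minus that in fibroblasts was -1.44 (SE 0.301, edgeR adjusted p 0.0193), and it was the only one of the 8 genes called, against 0.751% of all genes. Its adjusted p was 0.167 without control mouse 1 and 0.0503 within the diet pool. Macrophage Apoe was 16649 and 16063 under restriction and 21329, 13403 and 22518 on the control diet (-0.30, edgeR adjusted p 0.866). Basal minus macrophage gave -1.26 (SE 0.352, edgeR adjusted p 0.0922) and basal minus secretory -1.18 (SE 0.295, adjusted p 0.0955). None of the 8 was called there, against 0.243% and 0.391% of all genes. Without TMM these 2 differences were called (-1.37 and -1.63, edgeR adjusted p 6.31e-06 and 0.00368).

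In secretory cells none of the 8 genes was called under restriction, where 1.48% of 6626 genes were. Both sterol enzymes had their highest CPM in the restricted mice, but CPM carries no TMM scaling. How many of all genes were highest there was not counted. Hmgcs1 was 35.7 and 47.0 CPM there, 12.9, 18.3 and 15.5 on the control diet, 14.5, 8.53 and 12.1 on the high fat diet and 5.22, 3.41 and 14.3 on the low protein diet. The restricted mice lay above all others, from 36 and 7 UMIs, with a log2 fold change of 1.18 (SE 0.404, edgeR adjusted p 0.183). Sqle was 18.8 and 33.6 under restriction against 2.14, 12.2 and 8.89 on the control diet, from 19 and 5 UMIs, and at most 15.7 on the other diets (1.62, SE 0.610, edgeR adjusted p 0.232). Insig1 was 25.7 and 13.4 against 10.7, 0 and 10.5 (0.56, edgeR adjusted p 0.680). Acot1 was 13.9 and 20.1 against 24.1, 30.5 and 16.8, with overlap (-1.27, SE 0.369, edgeR adjusted p 0.104). It was called at -1.90 (adjusted p 0.0234) where secretory cells needed a Svs share of at least 50%. Against the high fat diet, whose mice had 27.8, 37.5 and 26.9 of Acot1, all above both restricted mice, Acot1 fell under restriction by a log2 difference of -1.93 (SE 0.357, edgeR adjusted p 0.00663). It was the only one of the 8 called there, against 2.37% of all genes. That call held without TMM (-1.34, edgeR adjusted p 0.0263) and was lost without restricted mouse 1 (-1.63, adjusted p 0.257). Against the low protein diet, with 36.5, 34.1 and 15.1, none of the 8 was called while 1.99% of all genes were, and Acot1 stood at -1.41 (edgeR adjusted p 0.0570). Apoe was 275 and 470 against 410, 372 and 21.8 on the control diet (-0.42, edgeR adjusted p 0.593), a difference that turned to 0.082 without TMM.

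The secretory result depended on the scaling. Without TMM, 538 genes were called with 500 higher, against 98 with 31 higher, and the median log2 fold change of all genes moved from -0.00 to 0.47. Hmgcs1 and Sqle were then called at 1.66 and 2.10 (edgeR adjusted p 0.0213 and 0.0469), of which 0.47 was that common shift. In secretory cells of restricted mice Dnase2b, Ceacam10 and Spink1 summed to 34992 and 62390 CPM against 91841 to 114333 in control mice, with Spink1 at 4162 and 9824 against 35761 to 62366. The stress list was 12938 and 19090 against 6663 to 9034, and the basal markers Trp63, Krt15 and Cldn4 2182 and 2520 against 405 to 1116. Their part in the differences of the 8 genes was not tested.

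**Figure D4:**
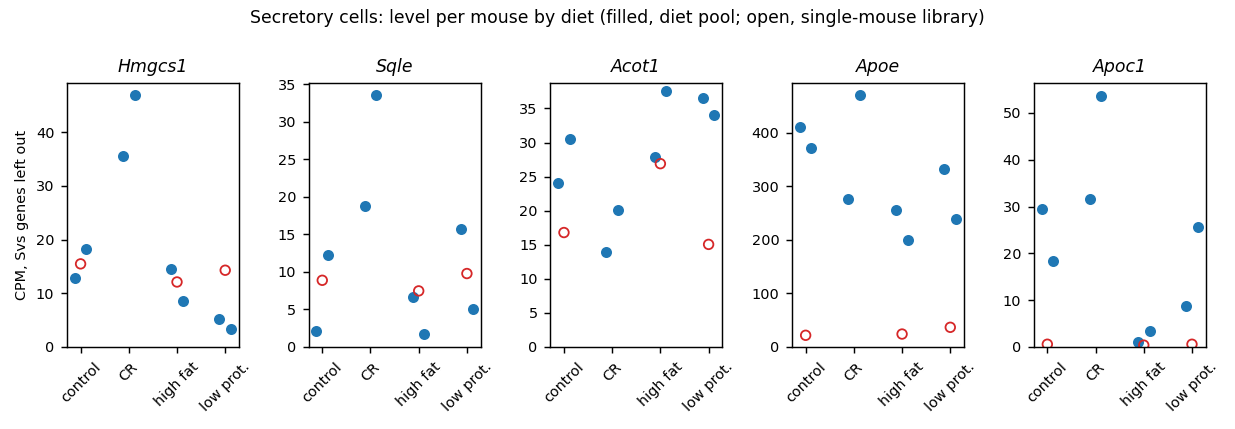
Level in secretory cells of each of the 11 diet mice, in CPM with Svs genes left out, by diet (filled points, diet pool; open points, single-mouse libraries). Hmgcs1 in both restricted mice (35.7 and 47.0) lay above the 9 other mice, and Apoe in the 3 single-mouse libraries lay far below the pool.

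Fibroblasts and macrophages gave no call under restriction. None of 7 genes tested in fibroblasts was called, against 1.10% of 6101 genes, and Apoc1 was too low to test. Fasn was 48.0 and 46.9 CPM under restriction and 25.1, 49.5 and 31.9 on the control diet, with overlap (0.80, SE 0.378, edgeR adjusted p 0.440). Insig1 was 71.7 and 27.0 against 38.7, 9.90 and 85.0 (0.79, edgeR adjusted p 0.605), Acot1 stood at 0.70 (adjusted p 0.480), and Scd1 differed by 0.01 (adjusted p 1.00). In macrophages, which were 11 to 74 cells per diet mouse, Insig1 and Apoe alone passed the filter on low counts, and neither was called, as was none of the 1804 genes tested (0%). By edgeR 134 of those genes had an unadjusted p under 0.05. Macrophage Insig1 was 95.6 and 231 under restriction and 142, 110 and 30.1 on the control diet (0.34, edgeR adjusted p 0.881).

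The high fat diet gave no call among the 8 genes in any class. The share of all genes called by edgeR was 0% in secretory, basal and macrophage cells and 0.0328% in fibroblasts, although 99, 145, 59 and 279 genes had an unadjusted p under 0.05 in these classes. Of these 8 genes, 3 differences had an unadjusted p under 0.05. Secretory Apoc1 was 1.11, 3.41 and 0.393 CPM on the high fat diet and 29.5, 18.3 and 0.588 on the control diet, from 1, 2 and 5 UMIs against 55, 3 and 9. The single-mouse libraries were both under 1, so the difference lay within the pool, and the log2 fold change was -2.28 (SE 0.619, edgeR adjusted p 1.00). With no filter on low counts its adjusted p was 0.0141. Basal Apoc1 in the same mice was 281, 155 and 245 against 456, 207 and 192 (-0.38, edgeR adjusted p 1.00).

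Secretory Acot1 was 27.8, 37.5 and 26.9 CPM on the high fat diet and 24.1, 30.5 and 16.8 on the control diet, a log2 difference of 0.66 (SE 0.206, edgeR adjusted p 1.00). The groups overlapped, since control mouse 2 lay above 2 of the 3 high fat mice. The single-mouse pair rested on 342 and 257 UMIs, the deepest of these counts. Fibroblast Hmgcs1 was 34.2, 36.5 and 64.1 against 59.9, 99.0 and 87.6, a log2 difference of -0.75 (SE 0.277, edgeR adjusted p 1.00), with overlap. Scd1, the desaturase, was 105, 101 and 148 in fibroblasts of high fat mice and 116, 49.5 and 114 in those of control mice (0.20, edgeR adjusted p 1.00). Apoe on the high fat diet stood at -0.33 in secretory cells, -0.15 in basal cells, 0.18 in fibroblasts and 0.48 in macrophages, with edgeR adjusted p values of 1.00. In fibroblasts that sign turned to -0.041 when cells with smooth muscle UMIs were left out and to -0.34 without high fat mouse 2.

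**Figure D5:**
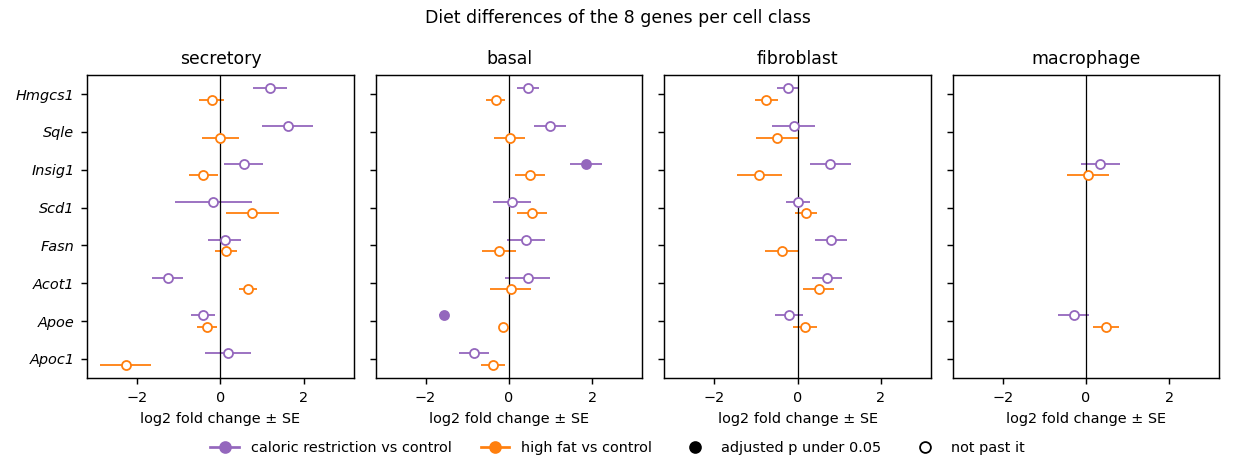
Log2 fold change (± SE) against control diet mice of each gene that passed the filter on low counts, by class, for caloric restriction and the high fat diet. Filled points, Apoe and Insig1 in basal cells under restriction, passed an edgeR adjusted p of 0.05.

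The wider pathways were counted with 4 lists, chosen with earlier results of these data known. These lists hold the 8 genes themselves, so the calls of Insig1 and Apoe are counted here again. Of the 25 genes of sterol synthesis and uptake, 16 were tested in basal cells under restriction, 2 were called higher and none lower, where 1.55% of all genes were called, and their median log2 fold change was 0.26 against 0.02 for all genes. Beside Insig1 the second was Stard4, a gene whose product carries cholesterol between membranes. Stard4 was 50.4 and 21.2 CPM under restriction and 7.49, 27.0 and 25.5 on the control diet, from 34 and 6 UMIs against 13, 3 and 15, so the groups overlapped. Its log2 fold change was 2.25 (SE 0.532, edgeR adjusted p 0.0436), which missed the threshold in the pool alone (adjusted p 0.192), without cells with smooth muscle UMIs (0.203) and without restricted mouse 1 (1.34, adjusted p 0.531). It also missed it without control mouse 1, control mouse 3 or any 1 of the high fat mice (edgeR adjusted p 0.0502 to 0.343). Idi1 (1.21, edgeR adjusted p 0.150) and Cyp51 (0.95, adjusted p 0.175) were next. In secretory cells 16 sterol genes were tested and none called (1.48% of all genes), with 13 positive and a median of 0.52 against -0.00. Fibroblasts had 13 tested, none called (1.10% of all genes) and a median of 0.20.

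All 11 of the 19 fatty acid synthesis genes tested in basal cells under restriction had a positive log2 fold change, with a median of 0.41, but none was called. The share of all genes called, 1.55%, and their median of 0.02 are the ones to set beside each list in these cells. Elovl5, an elongase, stood first at 1.10 (edgeR adjusted p 0.102). Of 28 genes of fatty acid oxidation and PPAR targets, 13 were tested and none called, at a median of -0.32. Of 19 genes of lipoproteins, efflux and lysosomal cholesterol, 10 were tested, 1 was called lower (Apoe) and the median was -0.71. Pltp, which transfers phospholipid between lipoproteins, was next at -1.18 (edgeR adjusted p 0.0613). Outside basal cells, 4 of 11 fatty acid synthesis genes tested under restriction were positive in fibroblasts (median -0.17) and 5 of 9 in secretory cells (0.08). The lipoprotein list had 8 of 12 positive in fibroblasts (median 0.23) and 4 of 8 in secretory cells (-0.03). None of these genes was called, against 1.10% of all genes in fibroblasts and 1.48% in secretory cells. On the high fat diet no gene of any list was called in any class. Its sterol list had medians of -0.13 in secretory cells, -0.13 in basal cells and -0.40 in fibroblasts, where 10 of 13 tested were negative.

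Age and rapamycin, tested together in the 10 C57BL/6J mice of the aging pool with age as months, gave no call among the 8. Of 7 genes tested in secretory cells none was called for age, against 0.0806% of 6206 genes, and none for rapamycin (0%). In basal cells of 8 mice none of 4 was called for age (0%) or rapamycin (0%), nor of 4 in fibroblasts (0% and 0%), nor of 2 in macrophages (0% and 0%). With the replicate number as a block, basal cells gave 0 calls for age and 1 for rapamycin over all genes, and none of the 8. By edgeR between 111 and 403 genes had an unadjusted p under 0.05 in these 8 comparisons. Acot1 had a log2 difference with rapamycin of -0.89 in secretory cells (SE 0.211, edgeR adjusted p 0.557) and of -1.81 in fibroblasts (SE 0.597, adjusted p 0.489). Basal Apoc1 differed by -0.06 per month of age (SE 0.0198, edgeR adjusted p 1.00). Secretory Apoe differed by -0.03 per month (adjusted p 0.719) and secretory Fasn by 0.03 (adjusted p 0.699). Strain, pool and chow all differ between these mice and the diet mice and cannot be told apart.

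The genes whose log2 levels ran closest to those of 7 of the 8 over mice, after the mean of each library set was taken off, are given as a description in the class where its median was highest. Over 21 mice Scd1 in fibroblasts was closest to Ezr (Pearson r 0.830). Over 19 mice Hmgcs1 in basal cells was closest to the ribosomal protein gene Rpl12 (0.805) and Apoc1 to Bzw1 (0.707). Sqle in basal cells ran with Klf3 (0.829), Insig1 in macrophages with C3ar1 (0.898), and Fasn and Acot1 in fibroblasts with Cul1 (0.861) and Masp1 (0.839). Sqle, Insig1, Fasn and Acot1 did not pass the filter on low counts in those classes. Mice share pools, depth and cell makeup, and the 3 highest of 1509 to 2858 genes were picked.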

How the data were processed

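Raw UMI counts per gene and cell were deposited as 1 matrix for each of 23 mice from 7 libraries. Per the labels and the matrix headers the authors had counted reads with Cell Ranger 6.0.1 (pools) and 3.1.0 (single-mouse libraries) on mm10. The 30406 genes in both references were joined by identifier. The labels name only the pool, so the diet, age and treatment of a pooled mouse were taken from its matrix name, the tag list of the pool and the study's methods.

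Cells with at least 500 genes, 200 UMIs and at most 10% mitochondrial UMIs were kept. A class needed at least 2 marker UMIs, at a rate of at least 5 per 10000 UMIs outside Svs genes, and no doublet caller was run. UMIs were summed per mouse and class, so each mouse counts once, and tested with edgeR 4.0.16 in R 4.3.3 (quasi-likelihood test, TMM, filterByExpr, Benjamini-Hochberg). The diet fit used all 11 diet mice and held the kind of library (pooled or single) as a covariate. The replicate numbers come from the matrix names. Deviations from the group means of same-numbered mice were correlated between groups, at -0.187 to 0.249 in the diet pool. In the aging pool they were -0.167 to 0.183 outside basal cells and 0.209 to 0.424 in basal cells. All 3 pairs of groups passed 0.1 there, the rule for taking the numbers to pair the mice. The main fits did not pair mice by number, and the number was a block only in alternative fits. An SE is the log2 fold change divided by the square root of its F. Depth per class and mouse ran from 12533 to 15303490 UMIs outside Svs genes. DESeq2 1.42.0, Python 3.11.15 and pandas 2.3.3 were also used, and the fits were tested on simulated data.

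The members and lists were chosen with earlier results of these data known. The text names the 8 genes, list genes that were called or stood next in order, and the closest genes in level, of which the first of 3 is given. The closest gene to Apoe and 1 marker list are not reported here. Idi1, Cyp51, Elovl5 and Pltp were named after their values were seen. Leaving out cells with smooth muscle UMIs, the tests between classes and those of restriction against other diets were added after the data had been seen.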

Additional observations from a re-analysis of the deposited data

Results flagged for a closer look

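The restriction difference of Apoe differed between 2 classes by a test of that difference. It was -1.57 in basal cells and -0.20 in fibroblasts, and basal minus fibroblast gave -1.44 (SE 0.301, edgeR adjusted p 0.0193). Basal Apoe was lower in both restricted mice than in each of the 9 other diet mice. With 1 mouse left out the adjusted p reached 0.167, without control mouse 1. The result rests on 2 restricted mice, both housed alone, and housing and diet cannot be told apart.

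In both the young and the old single-mouse library, which enter no comparison, 3 of the 8 genes lay above every other mouse in some classes. Only mice with at least 10 cells of the class were counted. Levels below the other mice were not looked for, and the share of all genes that lie above every other mouse was not computed. Apoe was 34565 CPM in basal cells of the young and 27274 in those of the old library, 3112 and 2668 in fibroblasts, and 56528 and 50150 in macrophages. Fasn was 44.7 and 36.9 in basal cells and 28.7 and 22.7 in macrophages, the latter from 4 and 5 UMIs. Acot1 was 54.3 and 51.5 in basal cells. Epididymal Lcn8, Lcn9 and Gpx5 summed to 4611 and 13071 CPM in the basal cells of these libraries, and their part in these levels was not tested. No group of the study held enough mice for a test of single outlying mice.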

How the results depend on the processing

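Of 1329 alternative values of 124 results, 1165 were marked as the same as the main value. For a difference this means the same direction and the same side of the threshold. Where a called gene got no adjusted p, the same direction was enough. For a count of calls it means a count near the main count, and for a level a shift smaller than the SD over mice. Basal Apoe under restriction stayed called in every alternative run, from -1.59 to -1.24, and from -1.66 to -1.46 with 1 mouse left out. Secretory results depended on TMM and counts of calls depended on the filter on low counts. Several levels of the 8 genes rest on fewer than 10 UMIs in a mouse.

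Without TMM 538 genes were called for restriction in secretory cells, where the difference of Apoe changed sign (0.082). Class differences that were not called in the main fits also changed sign. Fasn in secretory against basal cells went to -0.37, and Acot1 and Sqle in secretory cells against fibroblasts to -0.60 and -0.44. The fold of Hmgcs1 in secretory cells against macrophages stood at -0.19 without TMM. Hmgcs1 did not pass the filter on low counts within macrophages and was tested only through secretory cells, so nothing is read from that fold. With DESeq2, restriction gave 159 calls in secretory and 165 in basal cells, the high fat diet 0 in fibroblasts, age 9, 1, 5 and 11 in secretory, basal, fibroblast and macrophage cells, and rapamycin 3, 13 and 1 in the last 3. With no filter on low counts the high fat diet gave 13, 40, 36 and 6 calls in secretory, basal, fibroblast and macrophage cells, restriction 232, 249, 207 and 19, age 227, 26, 129 and 104, and rapamycin 145, 48, 139 and 101. Secretory against macrophage cells then gave 8975, and Fasn in secretory cells against fibroblasts turned to 0.088. Also without that filter, Apoc1 under restriction in basal cells (-0.90, edgeR adjusted p 0.0141), Apoe with age in secretory cells (adjusted p 0.0234), Apoc1 with age in basal cells (0.0209) and Acot1 with rapamycin in fibroblasts (0.0018) were called.

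Within the diet pool restriction gave 41 calls in secretory cells and 28 in fibroblasts, and the high fat diet 0 in fibroblasts. With only the 2 diets compared the high fat diet gave 3 in basal cells and 4 in fibroblasts, and restriction 25 in fibroblasts. Stricter markers gave 7 and 0 for the high fat diet in basal cells and fibroblasts and 19 for restriction in fibroblasts. Without cells with smooth muscle UMIs the high fat diet gave 4 and 0 in basal cells and fibroblasts, restriction 42 in basal cells and 1 in macrophages, and fibroblast Apoe on the high fat diet was -0.041. A limit of 200 genes or a Svs share of 50% gave 1 call for the high fat diet in fibroblasts, and no mitochondrial limit 1 for restriction in macrophages. With Svs genes kept in the total, secretory medians were 3.71 CPM for Insig1, 5.39 for Fasn, 10.3 for Acot1 and 105 for Apoe. The other genes fell too, to 5.36 for Hmgcs1, 3.71 for Sqle, 2.05 for Scd1 and 6.38 for Apoc1, by less than their SD over mice.

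With 1 mouse left out, calls ranged from 0 to 1, 0 to 3, 0 to 5 and 0 to 1 for the high fat diet in secretory, basal, fibroblast and macrophage cells, and from 49 to 125, 40 to 115, 32 to 82 and 0 to 32 for restriction. Restriction calls in secretory cells were 63 without control mouse 1 and 49 without control mouse 3, and in basal cells 54 without restricted mouse 1, 40 without control mouse 1 and 64 without control mouse 2. In fibroblasts they were 32 to 39 without restricted mouse 1, any 1 control mouse, or high fat mouse 1 or 3. Calls for age ranged from 0 to 22 in secretory cells, 0 to 3 in fibroblasts and 0 to 13 in macrophages, and for rapamycin from 0 to 2 in secretory cells and 0 to 2 in macrophages. With 1 library set left out, secretory against macrophage cells gave 3447 to 5592, Sqle -0.56 to 0.47 against basal cells and -0.31 to 0.74 against fibroblasts, and Fasn -0.35 to 0.14 against fibroblasts. Fibroblast Apoe ranged from -0.34 to 0.49 on the high fat diet and from -0.40 to 0.12 under restriction.

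With the replicate number as a block, restriction gave 103, 111, 82 and 6 calls in the 4 classes, the high fat diet 0, 0, 3 and 0, age 3, 0, 8 and 2 and rapamycin 0, 1, 0 and 2, and no call of the 8 genes changed. In basal cells of the aging pool the numbers met the rule for pairing, and elsewhere they share only a number. The cause of these shifts was not tested.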
